A study of Mus musculus with 6 samples.

Results

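The transcripts of the mouse mitochondrial genome (chrM) were followed in whole-brain RNA of mice without TRMT1L (KO) and of wild-type mice (WT). The genes were chosen by position: all 37 genes that GENCODE M21 places on chrM, of 55450 annotated genes in the tables, namely 13 mRNAs, 2 rRNAs and 22 tRNAs. TRMT1L is a relative of the tRNA guanosine methyltransferase TRMT1. The data were 6 libraries, 3 KO and 3 WT, which the labels call biological triplicates, made with a TruSeq Total RNA kit from total brain RNA kept above 200 bp. The labels name the genotypes and the tissue, and the KO allele, the age and the strain are not given in the sources used here.

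Mitochondrial DNA is transcribed from both strands into long precursors. The tRNAs lie between the mRNAs and rRNAs like punctuation, and their excision by the mitochondrial forms of RNase P and RNase Z releases the flanking RNAs. The mRNAs encode subunits of respiratory complexes I, III and IV and of ATP synthase, on which neurons depend for most of their ATP. A mature tRNA is much shorter than the size limit used here, so counts on tRNA genes come from reads of longer RNA or from tRNA that passed the selection, and the counts do not separate these sources.

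On the reference, the plus strand carries 28 of the genes and the minus strand 9, namely mt-Nd6 and 8 tRNAs. Plus-strand genes are products of the promoters on the heavy strand, and minus-strand genes are products of the light-strand promoter. Counts in the sense direction on the 37 genes ranged from 840506 to 1043726 per library, of 31201119 to 36145961 counts in all genes. Trmt1l, the targeted gene, served as a check of the labels: its counts were 1034 to 1279 in the WT group and 93 to 106 in the KO group. Oligodendrocyte markers were below 0 on the log2 scale in KO for 5 of 5 genes, with a median of -0.10 and a summed level of 3490 to 3919 CPM in WT and 3011 to 3584 CPM in KO. Choroid plexus markers were above 0 for 5 of 5 genes (318 to 373 CPM in WT, 378 to 451 CPM in KO), as were blood markers for 5 of 5 (109 to 149 and 98.3 to 247 CPM). The 7 neuronal markers summed to 5674 to 5942 CPM in WT and 5480 to 5827 CPM in KO. Summed levels in WT and KO were 1068 to 1124 and 1050 to 1204 CPM for 5 astrocyte markers, 143 to 175 and 135 to 165 CPM for 5 microglia markers and 266 to 270 and 253 to 277 CPM for 5 vascular markers. Without adjustment, Aldh1l1 (0.18) and Gfap (0.45) were higher and Aqp4 (-0.17) and the microglial P2ry12 (-0.34) lower at a p-value under 0.05 in edgeR. At that level 1 blood and 2 choroid plexus markers were also higher and 1 oligodendrocyte marker lower. Of all genes tested, 4.54% were higher and 3.38% lower. Gfap stood at 248 CPM in KO library 3 and at 115 to 140 CPM in the other 5 libraries. The part of these markers in the results on chrM genes was not tested.

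Of the sense counts on chrM, 3 mRNAs took 65.1% on average over the 6 libraries. mt-Co1, the catalytic subunit of cytochrome c oxidase (complex IV), held 36.8%, mt-Cytb, the cytochrome b of complex III, 15.6%, and mt-Nd5, a proton-pumping subunit of complex I, 12.7%. mt-Nd1, mt-Nd4 and mt-Nd2, 3 further membrane subunits of complex I, held 10.4%, 8.44% and 7.10%. The large-subunit rRNA mt-Rnr2 held 7.39% and the small-subunit rRNA mt-Rnr1 0.252%. mt-Nd6, the single mRNA of the minus strand, held 1.19%. The remaining 6 mRNAs, which make up 26.3% of the summed mRNA length, together held no more than 0.0155% in any library.

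**Figure D1:**
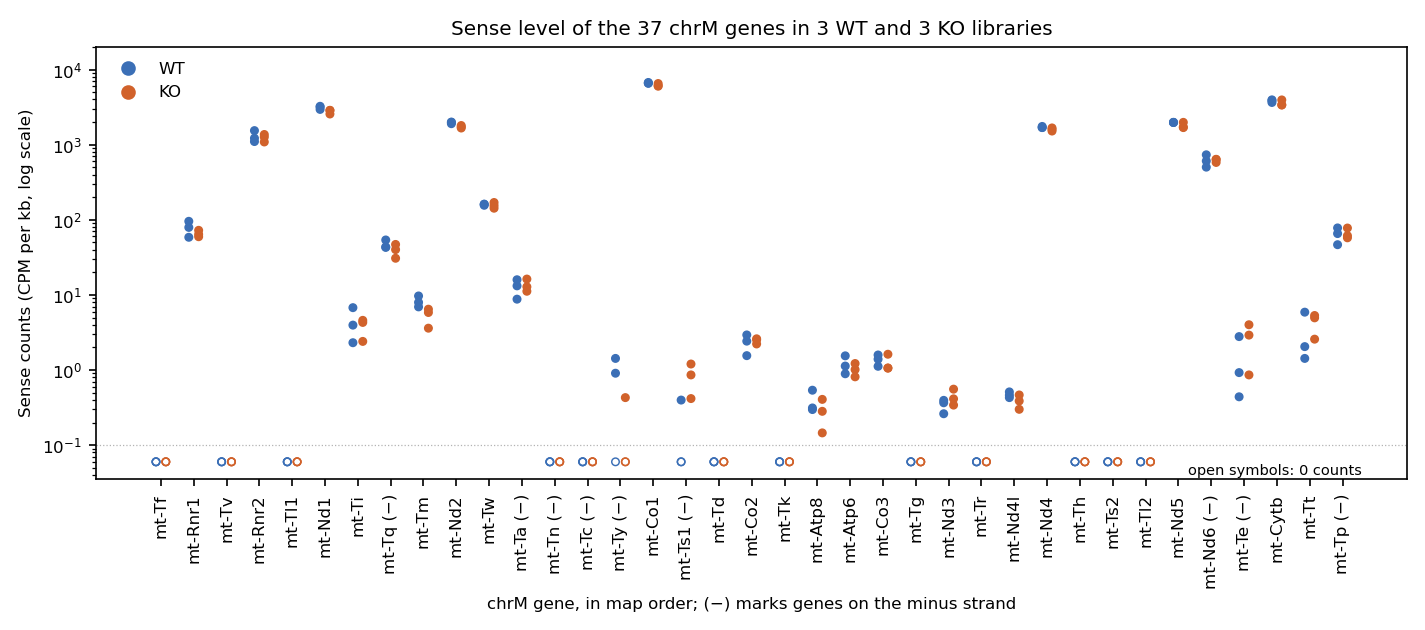
Sense level in CPM per kb of gene (log axis) for the 37 chrM genes in map order, with one point per library for 3 WT and 3 KO libraries and open symbols for libraries with 0 counts. The abundant mRNAs and mt-Rnr2 sit above 500 CPM per kb, and 6 mRNAs and most tRNA genes sit lower by orders of magnitude in every library.

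Levels were compared between genes per kb of gene length, as CPM (counts scaled to library size with TMM factors) per kb, averaged over all 6 libraries. mt-Co1 stood first at 6431 CPM per kb (6012 to 6744), followed by mt-Cytb at 3698 (3379 to 3956) and mt-Nd1 at 2945 (2564 to 3248). The ranges of these 3 genes did not overlap. mt-Nd5 at 1889, mt-Nd2 at 1848 and mt-Nd4 at 1656 CPM per kb had overlapping ranges, and that of mt-Nd4 (1521 to 1751) also met that of mt-Rnr2 (1088 to 1541, mean 1264). mt-Nd6 followed at 616 CPM per kb (503 to 734) and mt-Rnr1 at 71.6 (58.6 to 95.5). Whether rRNA was depleted before library construction is not given in the sources used here, so the rRNA levels describe these libraries and not the ribosome content of the tissue.

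The 6 mRNAs at very low counts were mt-Co2 and mt-Co3, the other mitochondrial subunits of cytochrome c oxidase, mt-Atp6 and mt-Atp8, both of ATP synthase, and mt-Nd3 and mt-Nd4l, 2 small subunits of complex I. They had between 1 and 73 counts per library and 766 in all, whereas the other 7 mRNAs had between 8182 and 370730 per library. mt-Co2 had 73, 52 and 35 counts in WT and 60, 60 and 55 in KO. mt-Co3 had 32, 39 and 36 in WT and 29, 28 and 46 in KO. The groups overlapped for both genes.

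Of the ATP synthase mRNAs, mt-Atp6 had 28, 33 and 20 counts in WT and 24, 28 and 20 in KO, and mt-Atp8, whose reading frame overlaps that of mt-Atp6 by 43 bases, had 4, 2 and 2 in WT and 2, 1 and 3 in KO. mt-Nd3 had 5, 4 and 3 counts in WT and 5, 4 and 7 in KO. mt-Nd4l, which overlaps mt-Nd4 by 7 bases, had 5, 4 and 5 counts in WT and 4, 3 and 5 in KO. No group stood apart at these counts.

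All 6 lie between mt-Td and mt-Nd4, and 5 of them are present almost whole in annotated nuclear transcripts. Each gene was cut into every possible window of 50 bases, and the windows were searched for exact matches in the GENCODE M21 transcripts of the other chromosomes. In mt-Co2, mt-Atp6, mt-Co3, mt-Nd4l and mt-Nd3 between 98.0% and 100% of the windows had such a match, against 62.2% in mt-Nd4, 51.1% in mt-Co1, 8.19% in mt-Nd2, 7.61% in mt-Nd5, 1.04% in mt-Rnr2 and 0 in mt-Nd1, mt-Nd6, mt-Cytb and mt-Rnr1. mt-Atp8 also had 0 matches in annotated transcripts. The genome itself was not searched here, including the stretch of chromosome 1 between the copies of mt-Co2 and mt-Atp6, so the 0 of mt-Atp8 does not show that it has no copy. In the deposited tables, reads that map to several places are counted apart from genes (4.61% to 5.16% of mapped reads in WT and 5.25% to 5.60% in KO), so a read that matches chrM and a nuclear copy equally well enters neither gene.

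**Figure D2:**
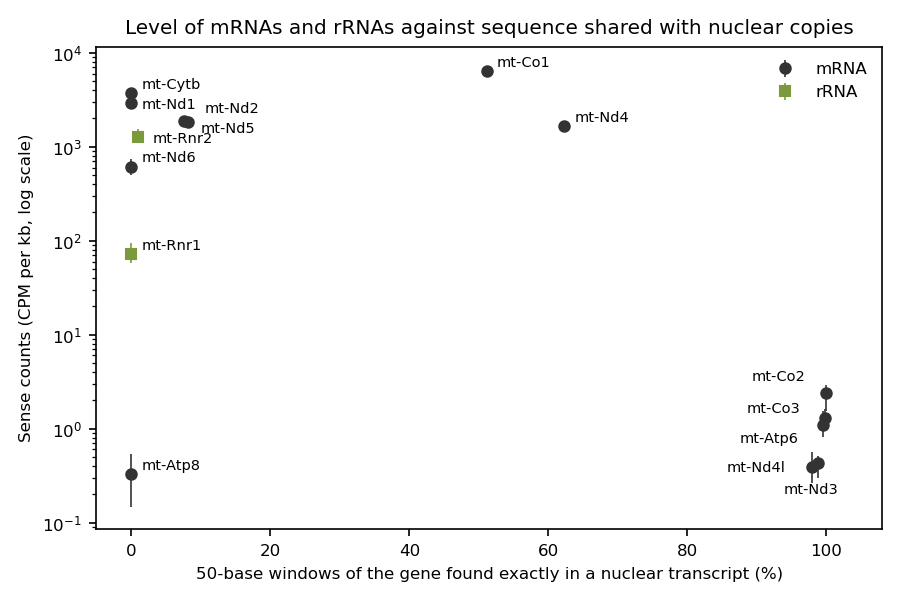
Mean sense level of the 15 mRNA and rRNA genes in CPM per kb (log axis, bars from the lowest to the highest of 6 libraries) against the percentage of their 50-base windows found exactly in an annotated nuclear transcript. The 5 genes at 98.0% or more sit between 0.389 and 2.38 CPM per kb, and mt-Atp8 sits at 0.331 with no window found in an annotated transcript.

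The search found 15 annotated copies. Of these, 8 lie on other chromosomes, among them Gm13340 (mt-Co1) and Gm13341 (mt-Co2) on chromosome 2, and 7 are unprocessed pseudogenes in a row on the minus strand of chromosome 1, from 24611535 to 24616197 in GRCm38, in the order of their chrM originals. Gm28661 matched mt-Co2 over 681 bases, Gm10925 matched mt-Atp6 over 678, Gm28437 matched mt-Co3 over 783, Gm10222 matched mt-Nd4l over 294 and Gm28439 matched mt-Nd4 over 876, each with 0 mismatches. Gm29216 had 6 mismatches to mt-Co1 in 492 bases. Gm28438 had 1 mismatch to mt-Nd3 in 345 bases, the substitution T3C, counted from the first base of the gene on its own strand with the mt-Nd3 base first. The starts of both are shown because this is the only mismatch in the 345 bases, with the differing base in capitals. The annotated copy is also shorter than mt-Nd3, which has 348 bases.
mt-Nd3: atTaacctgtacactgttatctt
Gm28438: atCaacctgtacactgttatctt

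In the row on chromosome 1, the copies of the 5 low-count genes carried more sense counts than the mitochondrial genes themselves, and the other 2 fewer, with 3414 on Gm29216 against 2038147 on mt-Co1 and 3452 on Gm28439 against 467791 on mt-Nd4. Gm28661 had 769, 505 and 494 counts in WT and 516, 430 and 468 in KO, 3182 in all, against 335 for mt-Co2. Gm10925 had 5114 in all against 153 for mt-Atp6, Gm28437 had 2063 against 210 for mt-Co3, Gm10222 had 499 against 26 for mt-Nd4l, and Gm28438 had 125 against 28 for mt-Nd3. Off the row, Gm13340 had 11228 counts and Gm13341 2520, and the remaining 6 copies had between 0 and 851. Reads from chrM and from a copy that differs by a few bases can be split between them by the counting. Where a copy had 0 mismatches, a read inside the matched bases enters neither gene, and the source of the counts on such copies was not tested. The values of all these genes are uncertain. Where only windows of 100 bases without a nuclear match are used as the length, mt-Co1 remained first at 9936 CPM per 1000 windows, and mt-Nd4 moved from the sixth place to the second at 4545, ahead of mt-Cytb at 4048 and mt-Nd1 at 3285.

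The 22 tRNA genes, of 59 to 75 bases, together held 0.0723%, 0.0660% and 0.0791% of chrM sense counts in the WT libraries, in the order of their replicate numbers, and 0.0872%, 0.0732% and 0.0679% in the KO libraries. In counts this was 570 to 772 per library and 4118 in all. Of these, 52.7% fell on mt-Tw (tryptophan), and 96.3% on 5 genes. Their sequences are shown 5′ to 3′ as the GENCODE M21 transcripts give them for GRCm38, because these 5 tRNA genes had the most counts after the size selection, and the capitals mark the anticodon that a stem-loop search found.
mt-Tw (chrM:4950-5016, plus strand): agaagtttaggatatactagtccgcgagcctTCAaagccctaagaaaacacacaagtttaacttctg
mt-Tp (chrM:15356-15422, minus strand): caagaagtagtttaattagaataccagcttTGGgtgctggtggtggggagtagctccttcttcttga
mt-Tq (chrM:3772-3842, minus strand): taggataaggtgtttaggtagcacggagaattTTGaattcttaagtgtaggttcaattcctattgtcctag
mt-Ta (chrM:5018-5086, minus strand): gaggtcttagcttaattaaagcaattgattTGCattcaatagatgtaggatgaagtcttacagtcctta
mt-Tm (chrM:3845-3913, plus strand): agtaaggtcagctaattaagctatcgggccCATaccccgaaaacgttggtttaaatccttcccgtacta

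mt-Tw had 394, 328 and 355 counts in WT and 396, 322 and 376 in KO. mt-Tp, the proline tRNA next to the control region, had 160, 98 and 172 in WT and 181, 130 and 149 in KO. mt-Tq, the glutamine tRNA, had 111, 97 and 126 in WT and 116, 96 and 79 in KO. In each of these 3 the groups overlapped. mt-Ta (alanine) had 40, 19 and 30 counts in WT and 39, 26 and 32 in KO. mt-Tm, which decodes methionine and so serves the start codons, had 20, 15 and 22 in WT and 14, 15 and 9 in KO, and its groups met at 15. Another 5 tRNAs, mt-Ti, mt-Tt, mt-Te, mt-Ts1 and mt-Ty, had between 6 and 58 counts over all libraries.

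The remaining 12 tRNA genes had 0 counts in all 6 libraries. With counting error only (3 counts), the highest limits for each were 0.000357% of chrM counts, in KO library 2, and 0.0957 CPM, in WT library 2. They are limits on counted reads and not on RNA, because reads that also overlap a neighbouring gene are left out. Zero counts went with the distance to the next gene on the same strand. STAR's gene counting leaves out a read that overlaps more than one gene on its strand, so a read that runs from a tRNA into its neighbour is not given to either. None of the 10 tRNA genes with a same-strand gene within 50 bases on both sides had a count. Of the 12 with at least 50 free bases on one side, 10 had counts, and the exceptions were mt-Tf, at the start of the linear reference, and mt-Td, with 69 free bases. mt-Tw had 311 free bases at its 3′ end, before mt-Co1, while mt-Tm had 70 at its 5′ end. Reads that span a tRNA and its neighbour were not analysed here.

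**Figure D3:**
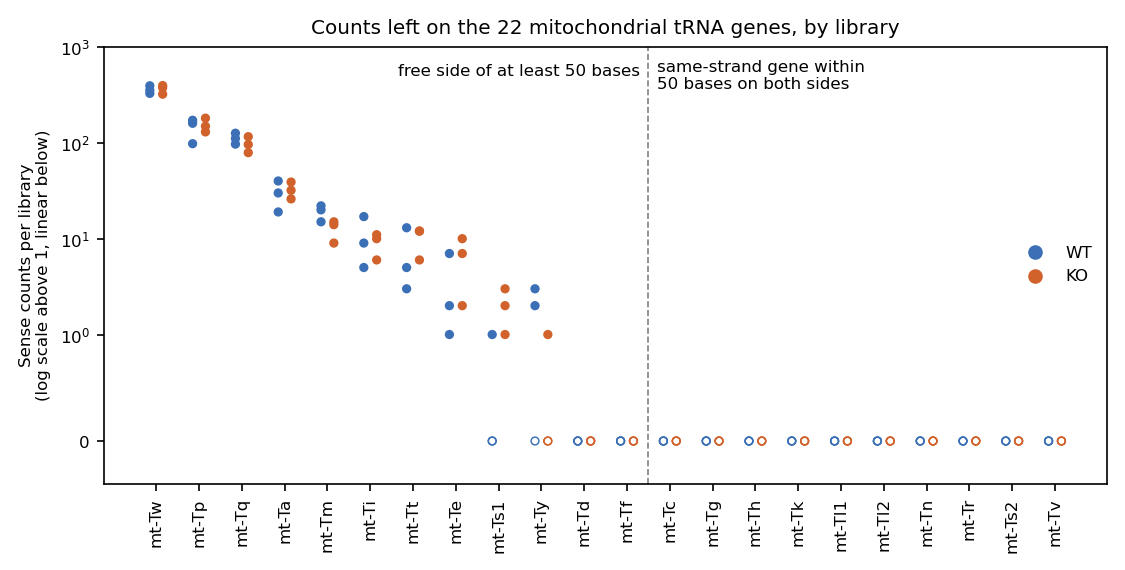
Sense counts per library on the 22 tRNA genes (log scale above 1, linear below, open symbols for 0), split by whether at least 50 bases on one side are free of other genes on the same strand. All 10 genes right of the dashed line are at 0 in every library, and 10 of the 12 genes left of it have counts.

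Reads in the opposite direction to a chrM gene were counted in a separate column. Over the 28 plus-strand genes there were 118041 such counts in all, of which 89538 lay on mt-Nd5, and over the 9 minus-strand genes there were 123073, of which 106621 lay on mt-Nd6. For comparison, 3189 nuclear protein-coding genes with at least 1000 sense counts in every library and no annotated gene on the other strand had a median of 0.110% of their counts in the opposite direction and a 95th percentile of 2.19%. mt-Rnr2 (0.0728% to 0.102%) and mt-Co1 (0.105% to 0.143%) were near that median. mt-Nd1 reached 0.474%, mt-Nd4 1.17%, mt-Cytb 1.31% and mt-Nd2 2.31%, whereas mt-Nd5 lay between 10.01% and 12.5% and mt-Nd6 between 58.2% and 67.3%.

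mt-Nd6 was thus covered more by plus-strand reads than by reads of its own strand. Its sense level was 315, 261 and 381 CPM in WT and 332, 329 and 301 CPM in KO, and its opposite-strand level 532, 536 and 547 CPM in WT and 463, 493 and 546 CPM in KO. In every library the opposite-strand level was the higher. mt-Nd5 and mt-Nd6 lie tail to tail and overlap by 14 bases. mt-Nd5 had 422, 403 and 504 CPM of minus-strand reads in WT and 438, 446 and 407 in KO, with overlapping groups. These levels are not scaled to length, and mt-Nd5 is the longer gene.

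Per kb, reads of the minus strand were most frequent on mt-Nd6, at 616 CPM per kb, and on mt-Nd5, at 239. They stood at 64.5 on mt-Tp, 14.8 on mt-Tt, 39.9 on mt-Cytb and 1.99 on mt-Te, which minus-strand transcription reaches before mt-Nd6. They stood at 16.95 on mt-Nd4, 8.06 on mt-Co1, 40.2 on mt-Nd2, 12.7 on mt-Nd1 and 1.06 on mt-Rnr2, which it reaches after mt-Nd5. On mt-Co1 and mt-Rnr2 the share of such reads was near the nuclear median given above. Reads assigned to the wrong strand were not separated from transcripts. These levels use the full gene length. A nuclear copy matches 62.2% of the 50-base windows of mt-Nd4 and 51.1% of those of mt-Co1. Reads that run from mt-Te into the adjoining mt-Nd6 enter neither gene. Plus-strand reads over minus-strand tRNA genes exceeded the sense reads on 7 of the 8, mt-Tp being the exception. mt-Tq had 54.8, 60.0 and 47.5 CPM of plus-strand reads in WT and 50.9, 58.4 and 39.9 in KO, which was 92.5% to 95.3% of its counts in both directions. The same share was 99.3% to 100% on mt-Ty, 98.7% to 100% on mt-Ts1, 93.2% to 99.1% on mt-Te and 74.2% to 83.2% on mt-Ta. On mt-Tp it was 20.4% to 45.8%, and mt-Tn and mt-Tc had 6 and 13 plus-strand counts in all and 0 sense counts.

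**Figure D4:**
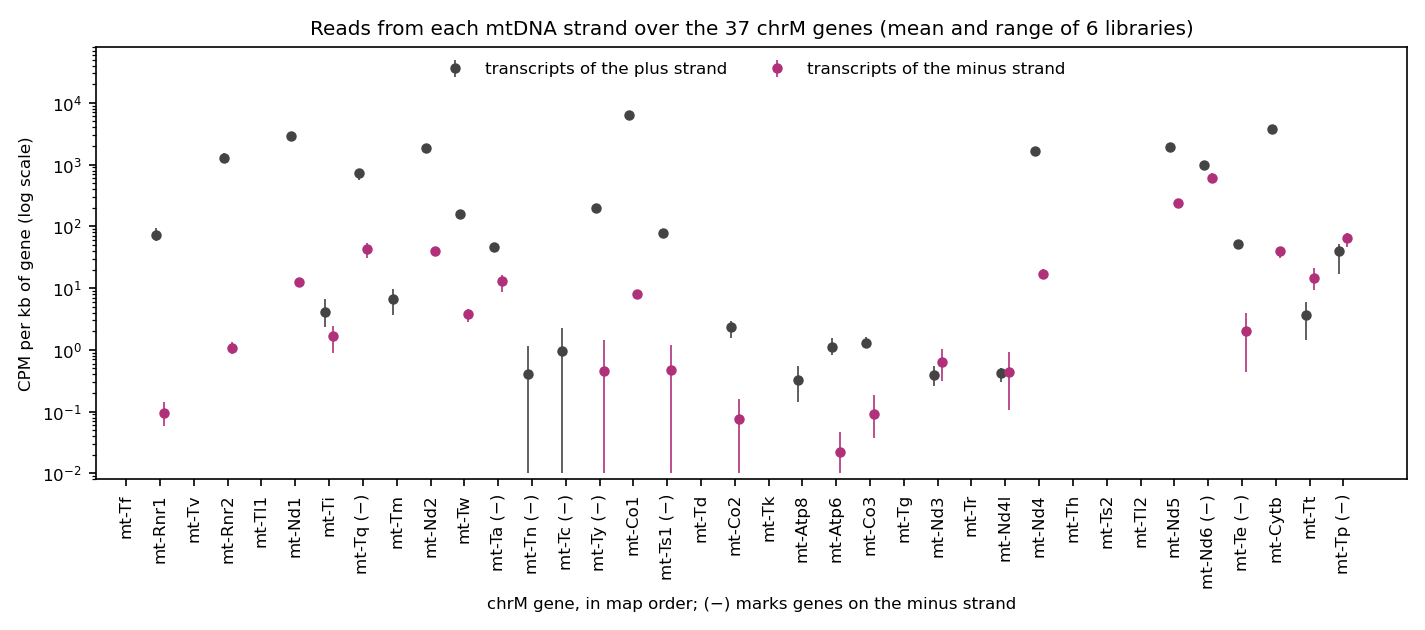
Reads from each strand of the mitochondrial genome over the 37 genes in map order, in CPM per kb (log axis), as the mean with the range of 6 libraries, where genes without reads of a strand have no point and a bar ends near the foot of the axis if a library had 0. Plus-strand reads exceed minus-strand reads over the abundant plus-strand mRNAs and also over mt-Nd6, and the minus-strand points are highest on mt-Nd6 (616) and mt-Nd5 (239).

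KO was then compared with WT. In KO, 6 abundant mRNAs (mt-Nd1, mt-Nd2, mt-Nd4, mt-Nd5, mt-Co1 and mt-Cytb) averaged between 88.2% and 93.7% of the WT level, and mt-Nd6 100.6%. None of the tested chrM genes passed the adjusted threshold of 0.05 in edgeR (quasi-likelihood test, Benjamini-Hochberg). Of the 37 genes, 19 passed the filter on low counts, 10 mRNAs, both rRNAs and 7 tRNAs, and the other 18 were the 12 with no counts and 6 with few. Over all 21237 genes tested, 2 were called, or 0.00942%. The smallest adjusted p-value of a chrM gene was 0.550, for mt-Nd2. A log2 fold change below 0 was found for 14 of the 19, with a median of -0.10 (-0.11 for the 10 mRNAs), while 49.9% of all genes tested were below 0 with a median of 0.00. For the 17 genes with a value after correction for GC content, 13 were below 0 before it (median -0.10) and 10 after it (median -0.03).

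Without adjustment, 5 of the 19 (26.3%) had a p-value under 0.05 in edgeR, all lower in KO, against 3.38% of all genes. mt-Nd2 (chrM:3914-4951) stood at 2063, 1978 and 2076 CPM in WT and 1791, 1869 and 1732 CPM in KO, with every KO library below every WT library. Its log2 fold change was -0.18, with an SE of 0.0398. mt-Nd1 (chrM:2751-3707) stood at 3108, 2825 and 3038 CPM in WT and 2746, 2454 and 2739 CPM in KO, again with no overlap (log2 fold change -0.18, SE 0.0510, edgeR adjusted p = 0.576). mt-Co1 (chrM:5328-6872) stood at 10188, 10419 and 10172 CPM in WT and 9463, 9289 and 10085 CPM in KO (log2 fold change -0.09, SE 0.0371). KO library 3 was the highest of its group and lay just under the WT libraries.

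mt-Nd4 (chrM:10167-11544) stood at 2330, 2413 and 2338 CPM in WT and 2096, 2208 and 2305 CPM in KO, with no overlap (log2 fold change -0.10, SE 0.0410). mt-Nd5 (chrM:11742-13565) stood at 3600, 3624 and 3611 CPM in WT, almost the same in all 3, and at 3083, 3137 and 3620 CPM in KO, so that KO library 3 lay inside the WT range. Its log2 fold change was -0.14 (SE 0.0538). It was -0.22 without KO library 3 and -0.0975 without KO library 1. That of mt-Nd4 was -0.0659 without KO library 1. The adjusted p-values of mt-Co1, mt-Nd4 and mt-Nd5 in edgeR were between 0.6003 and 0.614. Counted by separation, 5 of the 19 (mt-Nd1, mt-Nd2, mt-Co1, mt-Nd4 and mt-Tm) had no overlap between the groups and were lower in KO, where 6.97% of all genes had none in that direction, and 0 were higher, where 7.46% of all genes were.

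The size of these differences moved with a correction for base composition, and the calls moved with the tool and the filter. The median GC content of the chrM genes was 35.6%, against 47.1% over all annotated genes. After a correction for GC content the log2 fold changes were -0.09 for mt-Nd1, -0.08 for mt-Nd2, -0.05 for mt-Nd5, -0.03 for mt-Co1 and 0.00 for mt-Nd4. DESeq2 called 1 chrM gene, mt-Nd2 (adjusted p = 0.0493), among 25 of the 8885 genes to which it gave an adjusted p-value (0.281%). Limma-voom called 0 chrM genes, among 2 of 21237 (0.00942%). Without the filter on low counts edgeR called 4 chrM genes, mt-Nd1, mt-Nd2, mt-Nd5 and mt-Rnr1, among 298 of 37245 (0.8%). Reads mapping to several places were more frequent in every KO library than in every WT library, as given above, and so were reads in several genes (0.784% to 0.808% in WT, 0.863% to 0.909% in KO). Their part in the differences of mt-Co1, mt-Nd4 and the other genes was not tested.

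Of the other abundant members, mt-Cytb and both rRNAs had log2 fold changes below 0 and mt-Nd6 one near 0. mt-Cytb (chrM:14145-15288) stood at 4525, 4178 and 4413 CPM in WT and 3866, 3883 and 4515 CPM in KO, with KO library 3 again within the WT range. Its log2 fold change was -0.10 with an SE of 0.0573 (edgeR adjusted p = 0.705), and -0.02 after the correction for GC content. With a library left out it ranged from -0.17, without KO library 3, to -0.0595, without KO library 1. mt-Nd6 (chrM:13552-14070), with the levels given above, had one of 0.01 (SE 0.103, edgeR adjusted p = 0.989), and 0.11 after that correction. Of the rRNAs, mt-Rnr2 stood at 2438, 1744 and 1932 CPM in WT and 2001, 1722 and 2164 CPM in KO, and mt-Rnr1 at 91.2, 75.7 and 55.9 CPM in WT and 61.2, 56.9 and 69.2 CPM in KO. Both overlapped between the groups, with log2 fold changes of -0.05 (SE 0.107) and -0.25 (SE 0.137), and that of mt-Rnr1 was -0.42 without WT library 3 and -0.0747 without WT library 1. After the correction for GC content mt-Rnr2 had 0.05 and mt-Rnr1 -0.15. Across the 9 genes with at least 1000 counts in every library, the highest value was in WT library 1 for 4, in WT library 2 for 3 and in WT library 3 for 2. The lowest was in KO libraries 1 and 2 for 3 each, and in KO library 3, WT library 2 and WT library 3 for 1 each.

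**Figure D5:**
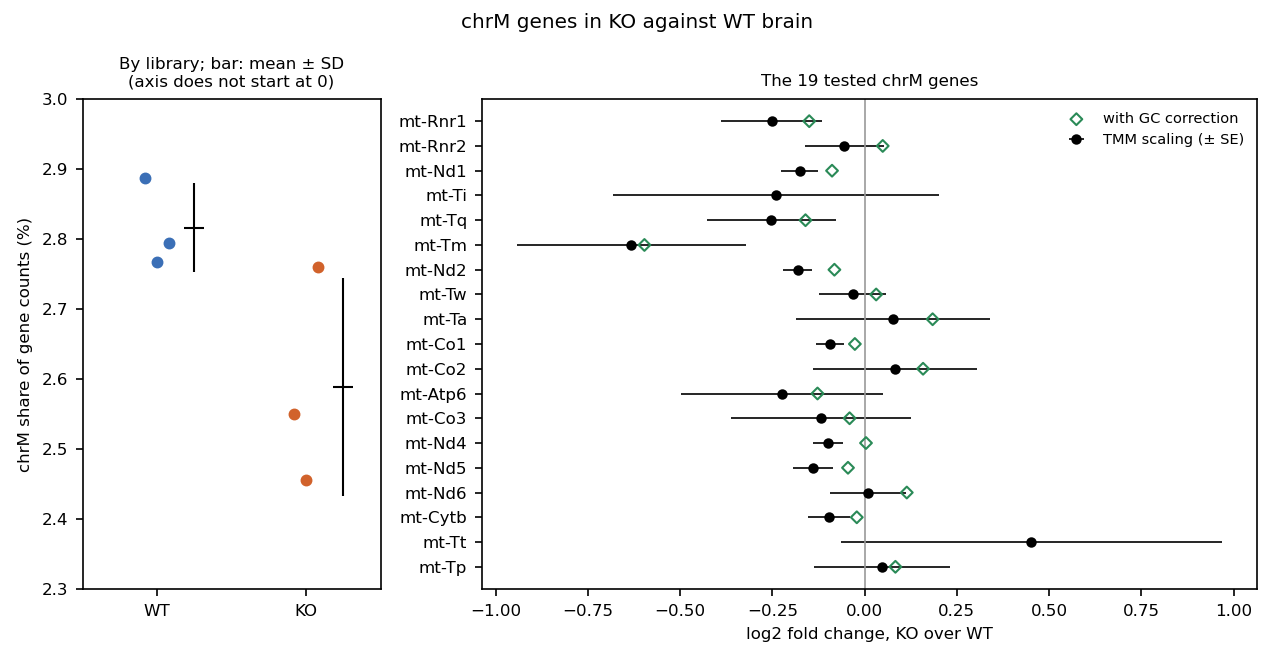
Left, the share of gene counts on chrM in each library (percent, axis not starting at 0) with the mean and SD of 3 libraries per group. Right, the log2 fold change (KO over WT) of the 19 tested chrM genes with its standard error (black) and, for 17 of them, the value after correction for GC content (green diamonds), where the corrected values of mt-Nd1, mt-Nd2, mt-Nd5, mt-Co1 and mt-Nd4 lie closer to 0 and those of mt-Nd6, mt-Co2, mt-Ta and mt-Tp farther from it.

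Among the tRNA genes, 7 were tested, with log2 fold changes from -0.63 for mt-Tm to 0.45 for mt-Tt and edgeR adjusted p-values from 0.643 to 0.968. mt-Tm had 0.550, 0.478 and 0.669 CPM in WT and 0.403, 0.446 and 0.249 CPM in KO, no overlap, from 9 to 22 counts per library, and its log2 fold change was -0.41 without KO library 3. mt-Tw, the deepest, had 10.8, 10.5 and 10.8 CPM in WT and 11.4, 9.57 and 10.4 CPM in KO. Its groups overlapped, and its log2 fold change was -0.03 (SE 0.0908). mt-Tq had one of -0.25 (SE 0.174), mt-Tp of 0.05 (SE 0.184) and mt-Ta of 0.08 (SE 0.263), all with overlapping groups. With a library left out, that of mt-Tq ranged from -0.40, without KO library 1, to -0.10, without KO library 3. Of the 6 low-count mRNAs, those that passed the filter were mt-Co2 (0.08, SE 0.223), mt-Atp6 (-0.22, SE 0.273) and mt-Co3 (-0.12, SE 0.244). Without WT library 2 both were close to 0, at -0.0013 for mt-Atp6 and -0.00137 for mt-Co3, and the other ends of their ranges were -0.39 without WT library 3 and -0.36 without KO library 3. Of the nuclear copies 13 were tested, and all 13 were below 0, from -0.70 to -0.17, with a smallest edgeR adjusted p-value of 0.576. Of all genes tested 49.9% were below 0. The copies can hold reads of chrM, as given above, so their values are not separate from those of the chrM genes.

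As a whole, chrM held 2.89%, 2.77% and 2.79% of gene counts in WT and 2.55%, 2.46% and 2.76% in KO. Every KO library lay below every WT library, although KO library 3 (2.760%) was almost level with WT library 2 (2.767%). The means were 2.82% ± 0.0632 and 2.59% ± 0.156 (SD, n = 3 each), a difference of -0.227 percentage points (p = 0.1 in a two-sided exact permutation test, the lowest that this design can give). Relative to all uniquely mapped reads, the shares were 1.28% ± 0.0414 and 1.22% ± 0.0870, and the groups overlapped (difference -0.0616, p = 0.4 in a two-sided exact permutation test). Among mapped reads, WT held 51.2% ± 0.925 and KO 49.3% ± 0.601 in no gene, and the part of this in the chrM shares was not tested. In bulk RNA, a change in the cells that make up the tissue and a change in RNA per cell cannot be told apart.

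The makeup of the chrM counts overlapped between the groups for each share tested, by two-sided exact permutation tests on 5 shares in all. The rRNA share was 7.51% ± 1.16 in WT and 7.78% ± 0.565 in KO (exact p = 0.8). The tRNA share was 0.0725% ± 0.00654 in WT and 0.0761% ± 0.01001 in KO (exact p = 0.6). The minus-strand genes held 1.17% ± 0.213 of sense counts in WT and 1.27% ± 0.129 in KO (exact p = 0.7). Minus-strand reads made up 3.13% ± 0.415 and 3.30% ± 0.322 of the reads of both directions (exact p = 0.7). Adjusted over the 5 by the Benjamini-Hochberg method, these 4 had exact p = 0.8 and the share of gene counts on chrM had exact p = 0.5.

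In the opposite direction 16 chrM genes passed the filter and 0 were called, where 3 of all 10787 genes (0.0278%) were, and the smallest edgeR adjusted p-value was 0.778, for mt-Nd4. mt-Nd4 had 24.4, 23.6 and 27.8 CPM of minus-strand reads in WT and 22.6, 21.7 and 20.1 in KO, with no overlap (log2 fold change -0.25, SE 0.0872, and -0.15 without WT library 3). It was the only one of the 16 with an unadjusted p-value under 0.05 and lower, against 2.84% of all genes, and the only one lower without overlap, against 5.43%. Another 2 were higher without overlap (5.27% of all genes). They were mt-Ts1, with 5.28, 5.10 and 4.68 CPM in WT and 5.73, 5.82 and 6.09 in KO, and mt-Ta, with 3.24, 2.998 and 3.04 CPM in WT and 3.22, 3.33 and 3.35 in KO. These levels are on the sense scale, on which mt-Ta overlaps, and its groups separate on the scale of the opposite-strand column. The opposite-strand log2 fold changes of mt-Nd5 and mt-Nd6 were -0.05 (SE 0.0743) and -0.12 (SE 0.0627), and that of mt-Nd6 ranged from -0.17 without KO library 3 to -0.0660 without KO library 1.

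The nuclear genes that make, process and modify these transcripts were read in the same fit. None of the 15 genes of mitochondrial DNA transcription and replication, 21 of mitochondrial RNA processing and decay, 25 of mitochondrial tRNA and rRNA modification and 16 of general mitochondrial content passed the adjusted threshold in edgeR. Their median log2 fold changes were 0.01, 0.01, 0.01 and 0.03. Without adjustment, 0, 1, 1 and 1 genes had a p-value under 0.05 in edgeR, each higher in KO, where 4.54% of all genes did.

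In the first list the smallest p-values belonged to Polrmt, the mitochondrial RNA polymerase (log2 fold change 0.13, SE 0.0671), Polg, the DNA polymerase (0.08, SE 0.0505), and Tfam, which packages mitochondrial DNA and starts transcription (0.07, SE 0.0581). Among processing genes they belonged to Fastk (0.16, SE 0.0627), which keeps the mt-Nd6 mRNA stable, to Grsf1, an RNA granule protein (-0.11, SE 0.0521), and to Ptcd1 (0.12, SE 0.0775). Among modification genes they belonged to Qtrt1, a subunit of the enzyme that inserts queuine (0.23, SE 0.102), to Yrdc, which acts in the synthesis of threonylcarbamoyladenosine (0.15, SE 0.0911), and to Trmt1 (0.08, SE 0.0537). Among content genes they belonged to the prohibitin Phb (0.18, SE 0.0647) and to the outer-membrane import subunits Tomm40 (0.11, SE 0.0529) and Tomm70a (-0.10, SE 0.0483). The smallest edgeR adjusted p-value of these 12 genes was 0.580, for Phb.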

How the data were processed

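Long RNA was sequenced from 3 WT and 3 KO brains. The deposited tables hold raw counts per gene, which the authors made with STAR 2.7.0f after cutadapt 1.9.1, per the submitters' processing notes. The genome build, annotation and read length are not given in the sources used here, and the gene identifiers match GENCODE M21 (GRCm38) exactly. The last of the 3 count columns held 94.6% to 94.8% of stranded counts and was read as sense, and the other stranded column as opposite. Reads in several genes or places stay outside the gene rows. In R 4.3.3, edgeR 4.0.16 (filterByExpr, TMM, quasi-likelihood test, Benjamini-Hochberg over all genes, genotype alone) was fitted to each direction, and opposite-strand CPM were put on the sense scale. Shares were compared by exact permutation tests. Limits of precision at 0 counts used 3 counts. The tests were run on simulated counts first. Pairs of libraries of a group differed by more than sampling noise (chi-square per degree of freedom 4.39 to 9.35).

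The genes named are all 37 chrM genes, with values per library for the mRNAs, the rRNAs and the 5 tRNAs with the most counts. Of the nuclear lists, the 3 genes with the smallest p-values are named. Members and lists were chosen with earlier results of these data known. Alternatives were the unstranded column, other scalings and filters, DESeq2 1.42.0, limma-voom (limma 3.58.1), GC correction, a replicate block and leaving out each library.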

Additional observations from a re-analysis of the deposited data

How the results depend on the processing

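Of 281 fold changes of chrM genes recomputed under the alternatives, 248 kept their direction and their side of the threshold, 8 kept their direction with no adjusted p-value in DESeq2, 5 passed the threshold and 20 changed sign, and in the opposite direction 142 of 160 kept both and 18 changed sign; the cause was not tested. Without the filter on low counts edgeR called 298 genes, 4 of them on chrM, and 15 in the opposite direction. DESeq2 called 25 genes, 1 on chrM. With the replicate number as a block the counts were 4 genes, 0 on chrM and 5 in the opposite direction, and deviations of same-numbered libraries correlated at 0.0402, -0.0314 and -0.0581, with 1 of 6 libraries closest to its own number, so the numbers were not taken as pairs. Leaving out 1 library at a time gave 2 to 5 called genes (5 without KO replicate 3), 0 on chrM, and 2 to 12 in the opposite direction, namely 9 without WT replicate 3, 6 without KO replicate 2 and 12 without KO replicate 3. The chrM share then differed by -0.313 to -0.161 percentage points, the rRNA share by -0.178 to 0.927 and the tRNA share by -0.00196 to 0.00772, with the changes of sign without WT replicate 2 and without KO replicate 1. With GC correction the log2 fold changes turned to 0.0490 for mt-Rnr2, 0.00372 for mt-Nd4 and 0.0313 for mt-Tw, and with block and GC correction together to 0.0558, 0.000887 and 0.0296. That of mt-Nd6 turned to -0.0998 in the unstranded column and -0.00165 with total counts. Opposite to mt-Te it turned to 0.00807 with sense scaling, 0.00279 without the filter and 0.00376 in DESeq2. Leaving out libraries spanned 0 for mt-Rnr2 (-0.15 to 0.10), mt-Nd6 (-0.12 to 0.16), mt-Tp (-0.13 to 0.22), mt-Ta (-0.12 to 0.28), mt-Co2 (-0.13 to 0.30) and mt-Tw (-0.0998 to 0.0265), and in the opposite direction for mt-Te (-0.0548 to 0.0887), mt-Rnr2 (-0.14 to 0.23), mt-Ty (-0.14 to 0.0694), mt-Co1 (-0.21 to 0.0141), mt-Nd5 (-0.12 to 0.0714), mt-Tt (-0.39 to 0.20), mt-Tw (-0.30 to 0.00798) and mt-Tq (-0.26 to 0.0149). Without a change of sign, values with a library left out ranged for mt-Rnr1 from -0.42 to -0.0747, for mt-Cytb from -0.17 to -0.0595, for mt-Tq from -0.40 to -0.10, for mt-Atp6 from -0.39 to -0.0013, for mt-Co3 from -0.36 to -0.00137, for mt-Tm from -0.80 to -0.41, for mt-Nd4 from -0.13 to -0.0659, for mt-Nd5 from -0.22 to -0.0975 and, in the opposite direction, for mt-Tp from 0.0920 to 0.92, for mt-Nd4 from -0.30 to -0.15 and for mt-Nd6 from -0.17 to -0.0660. GC correction moved mt-Atp6 to -0.13, mt-Co3 to -0.04, mt-Tq to -0.16, mt-Co2 to 0.16, mt-Tp to 0.08 and mt-Ta to 0.18, and the unstranded column moved mt-Tp to 0.38. Low counts limit the tRNAs and the 6 mRNAs with 1 to 73 counts per library.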
